A study of Mus musculus with 9 samples.

Results

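The genes described here are 38 genes of the cell cycle and of DNA replication, chosen by name from a fixed list and read in whole quadriceps femoris, a thigh muscle, of female mice. For 37 of the 38 genes the array held a probe set (a group of short probes read as 1 value) that the platform annotation assigns to that gene alone; Ccnb1, a mitotic cyclin, had none and is not analysed here. Where a gene had several such probe sets, the brightest by its mean over all 9 arrays stood for it. Of the 37 genes, 21 passed the filter on low values, which asks for a log2 value above 5 in at least 3 arrays, against 9697 of 18193 genes on the whole array. The mice carried the strain label C57Bl/6 HT transgenic in all 3 groups and overexpressed a self MHC class I protein in skeletal muscle once doxycycline was withdrawn. Early mice (n = 3) lost doxycycline at 21 days of age and were killed at 35 days. Late mice (n = 3) lost it at 35 days and were killed at 50 days. Control mice (n = 3) received doxycycline throughout and were killed at 35 days; the treatment protocol describes them as littermates with a single transgene, which their strain label does not show. The promoter that drives the transgene is not given in the sources used here. Early and control mice shared an age but differed in drug, and given that protocol may have differed in genotype. In both comparisons with controls, induction therefore cannot be told apart from the drug or from such a genotype difference. Late mice were also killed at a later age than controls, so that between late and control mice induction and age cannot be told apart either. All values are log2 expression after GCRMA.

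Before a cell copies its DNA, the Mcm proteins are loaded at origins as a ring-shaped helicase, and Pcna then clamps the polymerases to the template while ribonucleotide reductase (Rrm1 with Rrm2), Tk1 and Tyms supply nucleotides. Cyclins with their kinases time the steps, and in mitosis Aurora kinases, checkpoint kinases, kinesin motors and the anaphase-promoting complex with Cdc20 and Ube2c separate the chromosomes. The nuclei inside muscle fibres do not divide, and the dividing cells of a growing muscle are satellite cells and myoblasts, fibroblast-like, vascular and immune cells. In a whole muscle, fewer cells of a type and less RNA per cell cannot be told apart.

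The promoters of the members with the smallest p values against controls that have one in the RefSeq table are shown, because promoters of such genes commonly hold CCAAT boxes, E2F sites and the cell cycle element called CHR. Stmn1 and Ccnd1 are named only. Each sequence is the 250 bases before the gene's start from RefSeq (GRCm38.p6), with matches to any of the motifs below in capitals.

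Mcm5 promoter, chr8:75109259-75109508, plus strand: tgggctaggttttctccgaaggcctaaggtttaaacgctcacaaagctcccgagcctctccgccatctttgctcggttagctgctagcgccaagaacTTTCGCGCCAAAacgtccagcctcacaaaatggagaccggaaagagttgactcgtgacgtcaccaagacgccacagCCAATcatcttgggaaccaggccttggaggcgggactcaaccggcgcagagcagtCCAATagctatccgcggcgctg

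Cenpa promoter, chr5:30666636-30666885, plus strand: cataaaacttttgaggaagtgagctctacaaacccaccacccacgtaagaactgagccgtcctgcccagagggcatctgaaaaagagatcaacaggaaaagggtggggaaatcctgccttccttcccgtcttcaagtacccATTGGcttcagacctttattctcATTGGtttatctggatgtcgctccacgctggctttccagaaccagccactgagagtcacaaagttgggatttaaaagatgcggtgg

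Mcm2 promoter, chr6:88898781-88899030, minus strand: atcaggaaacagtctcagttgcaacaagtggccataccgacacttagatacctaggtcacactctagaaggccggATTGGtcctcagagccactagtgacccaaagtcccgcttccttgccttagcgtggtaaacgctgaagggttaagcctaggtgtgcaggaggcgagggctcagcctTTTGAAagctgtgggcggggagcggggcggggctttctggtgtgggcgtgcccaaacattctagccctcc

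Ccnb2 promoter, chr9:70421555-70421804, minus strand: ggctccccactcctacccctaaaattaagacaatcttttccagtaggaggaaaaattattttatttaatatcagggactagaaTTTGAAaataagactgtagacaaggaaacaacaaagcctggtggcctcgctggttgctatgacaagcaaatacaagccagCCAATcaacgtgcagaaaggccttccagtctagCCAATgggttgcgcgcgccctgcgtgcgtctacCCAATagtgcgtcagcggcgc

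Mki67 promoter, chr7:135716380-135716629, minus strand: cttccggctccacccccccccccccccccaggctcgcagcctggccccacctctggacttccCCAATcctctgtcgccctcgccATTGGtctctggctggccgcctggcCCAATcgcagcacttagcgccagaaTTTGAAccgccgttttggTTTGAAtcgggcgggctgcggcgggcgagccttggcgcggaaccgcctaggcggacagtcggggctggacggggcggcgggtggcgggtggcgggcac

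Cdc20 promoter, chr4:118437344-118437593, minus strand: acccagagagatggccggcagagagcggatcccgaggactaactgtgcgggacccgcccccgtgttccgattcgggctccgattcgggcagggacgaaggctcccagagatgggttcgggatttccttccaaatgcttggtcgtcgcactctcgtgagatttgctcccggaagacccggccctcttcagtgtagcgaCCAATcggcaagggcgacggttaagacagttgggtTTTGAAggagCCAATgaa

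The motifs were searched on both strands as CCAAT for the CCAAT box, TTTGAA or TTCGAA for CHR, and TTTGGCGC, TTTCGCGC, TTTCCCGC or TTTGGCGG for E2F. The table held a promoter for 31 of the 38 genes. CCAAT was found in 26 of these 31 windows (83.9%), against 34.5% of 27025 promoters of the same length. A CHR match was found in 11 (35.5%), against 17.4% of all promoters, and an E2F match in 4 (12.9%), against 2% of all. Among the printed promoters only that of Mcm5 held an E2F match, as a pair of matches that overlap, TTTCGCGC and the reverse of TTTGGCGC. That of Mki67 held 3 CCAAT and 2 CHR matches. The matches describe letters and were not tested as sites.

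All 10 markers of muscle fibres passed the filter. The median of all tested genes lay within 0.05 of the control mean in each array. Among dim probe sets the arrays were not level: over all 18193 genes, early 1 was the lowest early array for 59.5% and late 1 the lowest late array for 60.8%, while late 3 was the highest late array for 53.1%. Counts over dim members are therefore given beside the same count over all genes. Late 1 also stood apart for these genes, since it was the highest late array for 23 of the 37 members (62.2%), against 26.2% of all genes. Many late differences below are therefore given with and without it. Because late 1 was picked from the values of these same genes, leaving it out lowers most of their late differences by construction. Early 3 was in turn the highest early array for 27 of the 37 members (73.0%), against 54.2% of all genes. Among the 21 members that passed the filter it was the highest for 13 (61.9%), against 35.6% of all tested genes. Leaving out either array also changes the shared error, so calls gained without late 1 or without early 3 support nothing further.

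Early against control asked how proliferation genes stood after induction in young mice, at matched age. They lay lower as a group, by sizes that did not pass the test for any single member. Of the 37 measured members, 34 had a negative difference (91.9%), against 67.9% of all genes, and in 17 (45.9%) every early array lay below every control array, against 9.89% of all genes. Of these 17, 7 belonged to the 16 members below the filter, where the arrays were not level. None had every early array above every control, against 5.52% of all genes. Among the 21 members that passed the filter, 0 were called at an adjusted p under 0.05 in limma, where 1.19% of all tested genes were called. At an unadjusted p under 0.05, 9 of these members were lower (9.89% of all tested genes) and 0 higher (8.64%). In 19 of the 21 the difference was negative (54.1% of all tested genes), in 10 every early array lay below every control (13.9%) and in 0 above (9.63%). Their median difference was -0.74, against -0.03 over all tested genes. For 5 of the 21 members (Mki67, Ccna2, Ccnb2, Ube2c and Birc5) fewer than 3 early and late arrays lay above the floor, so the controls carried them through the filter. They make up 5 of the 10 members without overlap and 4 of the 9 with a low unadjusted p, so these counts, their shares and the median describe the genes and support nothing further. Among the other 16 members, 5 lay below the controls without overlap, and their median difference was -0.59. Over the 17 members with a mean over the 9 arrays above 5, the median was -0.59, against -0.03 over all genes chosen the same way.

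Late against control asked the same of later induction, with age confounded, and used the same control arrays. Of the 37 members, 34 had a negative difference (35.6% of all genes), in 9 (24.3%) every late array lay below every control (8.9% of all genes), and Rrm1 alone lay above in every late array (9.33% of all genes). Of the 21 that passed the filter, 0 were called (0.206% of all tested genes). At an unadjusted p under 0.05, 7 were lower (8.44% of all tested genes) and 0 higher (8.82%). The difference was negative in 20 of the 21 (48.8% of all tested genes). Every late array lay below every control in 4 (14.9%) and above in 1 (16%), counts near the background. The median difference was -0.43, against 0.01 over all tested genes, and -0.83 without late 1. The 5 members that the controls carried through the filter are among these 21, with a median of -1.14. Among the other 16, 6 had a low unadjusted p, 4 lay below the controls without overlap, and the median was -0.36. The late counts, shares and medians therefore describe the genes and support nothing further. Without late 1, Mcm5 passed the test (adjusted p = 0.017, within a range of 0.00372 to 0.325 over all alternatives).

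**Figure D1:**
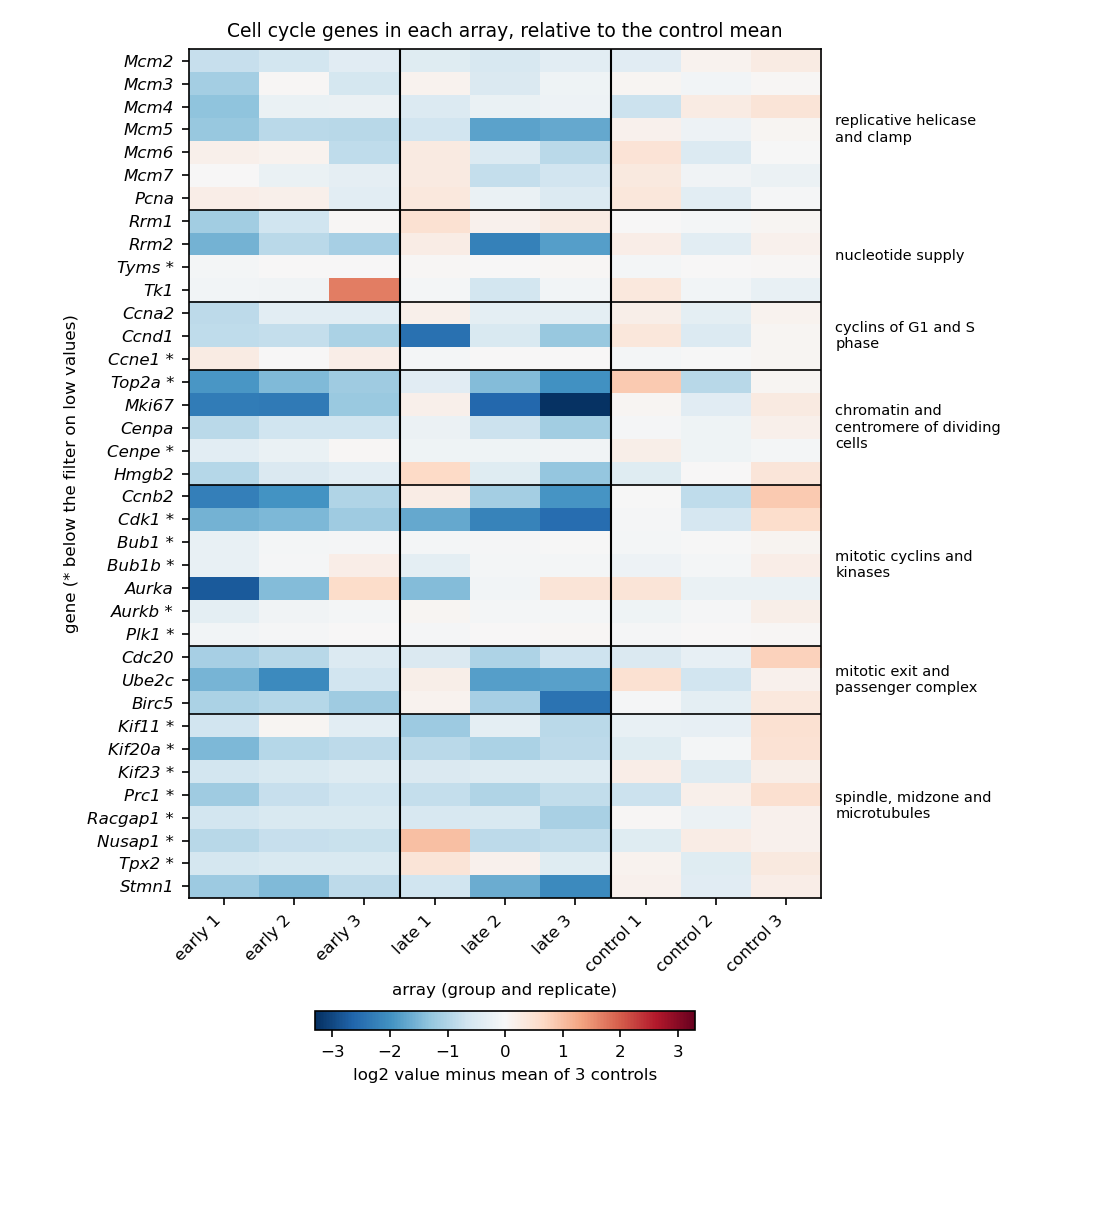
Log2 value of each of the 37 measured genes in each array minus the mean of the 3 controls (blue below, red above), with genes grouped by role in rows and arrays in columns; asterisks mark the 16 genes below the filter on low values. Blue runs through most rows of early 1 to 3, late 2 and late 3, while in late 1 Mki67, Rrm2, Ube2c and Birc5 stand near the controls.

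The arrays did not carry these genes alike. Over the 37 members, the median distance from the control mean was -0.90, -0.52 and -0.44 in early 1, 2 and 3, and -0.06, -0.49 and -0.69 in late 1, 2 and 3, against 0.01, -0.18 and 0.15 in control 1, 2 and 3. Over all 18193 genes this median lay between -0.10 and 0.03 in every array. The number of members below the lowest control was 32, 25 and 21 in early 1, 2 and 3, where 58.5%, 25.8% and 23.1% of all genes lay there. In late 1, 2 and 3 it was 16, 24 and 24, where 26.4%, 21.2% and 18.5% of all genes lay there. Late 1 thus had the fewest members below the controls, while in early 1 a large share of all genes lay below them as well.

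**Figure D2:**
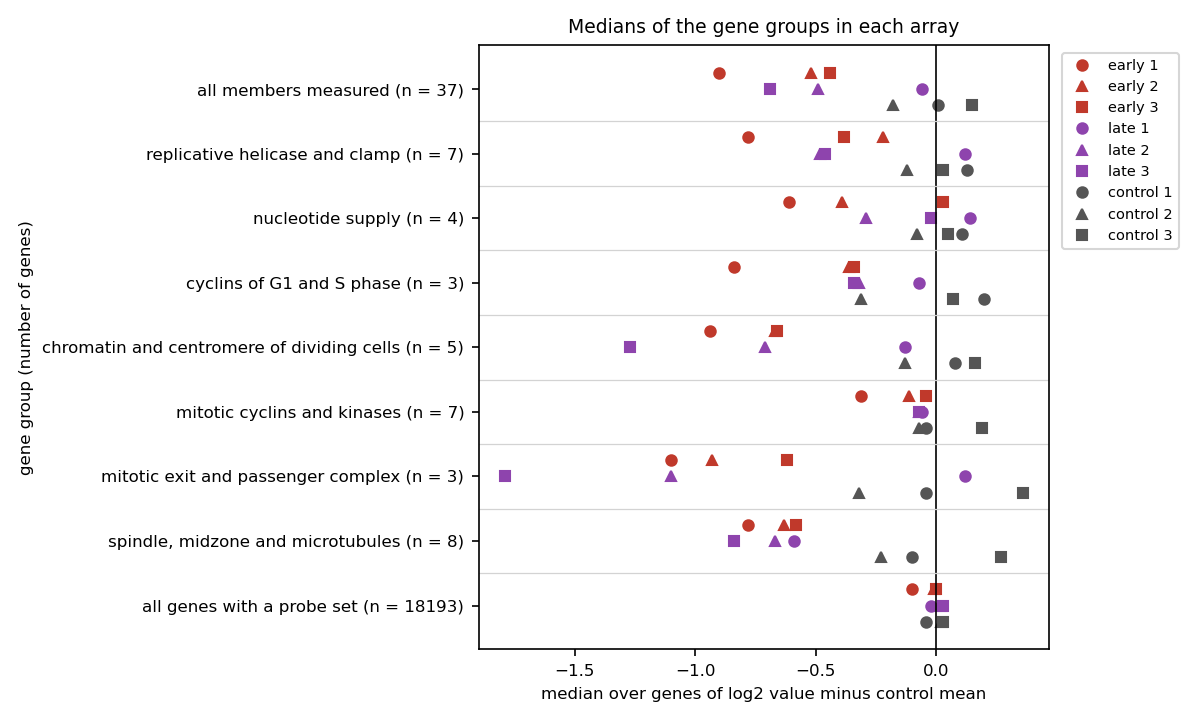
Median over genes of the log2 value minus the control mean (horizontal axis) for the 37 measured members, for each role and for all 18193 genes; colours are groups and shapes are replicates. The median of the 8 spindle and midzone genes lies between -0.84 and -0.58 in all 6 early and late arrays, and that of the 3 mitotic exit genes is -1.79 in late 3 and 0.12 in late 1. All spindle and midzone genes but Stmn1 are below the filter, so their median rests mostly on values under the floor. Ube2c and Birc5 are also under the floor in late 3.

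Among the subunits of the replicative helicase, Mcm5 lay furthest below the controls on the probe sets used. It measured 6.56, 6.92 and 6.89 in early muscle and 7.17, 6.05 and 6.13 in late muscle, against 7.94, 7.63 and 7.87 in control muscle. No early or late array reached the lowest control. The difference was -1.02 ± 0.28 (SE; 2.03-fold lower; adjusted p = 0.139) in early mice and -1.36 ± 0.28 (2.57-fold lower; adjusted p = 0.0942) in late mice. Mcm2, another subunit, measured 5.57, 5.73 and 5.97 in early and 5.94, 5.80 and 5.99 in late muscle, against 5.97, 6.45 and 6.62 in control muscle. Control 1 overlapped with both other groups, and the differences were -0.59 ± 0.19 (adjusted p = 0.177) and -0.43 ± 0.19 (adjusted p = 0.289). A second Mcm2 probe set gave -1.88 ± 0.44 in early mice (adjusted p = 0.102 over all passing probe sets) and -0.62 ± 0.44 in late mice, so the size of the Mcm2 difference depends on the probe set. Without early 3 Mcm2 passed the test in early mice (-0.70 ± 0.20, adjusted p = 0.049), where 18.1% of all tested genes were called. Over all alternatives its adjusted p ranged from 0.00463 to 0.448.

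The other helicase subunits overlapped with the controls. Mcm3, Mcm4, Mcm6 and Mcm7 had early differences of -0.55, -0.58, -0.19 and -0.17 and late differences of -0.16, -0.28, -0.35 and -0.37. Without late 1 the late differences of Mcm6 and Mcm7 were -0.67 and -0.71. In Mcm3 and Mcm4 early 1 was the lowest of all 9 arrays, at 5.51 and 6.44. Pcna, the sliding clamp, had differences of 0.02 ± 0.27 in early and -0.10 ± 0.27 in late mice, with values between 10.82 and 11.65 over all arrays. The early differences of helicase subunits and clamp ran from -1.02 to 0.02, and these genes were not tested against each other.

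The subunits of ribonucleotide reductase had different patterns. Rrm2, the subunit that is made in S phase and sets the enzyme's activity in dividing cells, measured 6.28, 6.94 and 6.73 in early and 8.08, 5.60 and 6.00 in late muscle, against 8.04, 7.49 and 7.98 in control muscle. All early arrays lay below the controls, while late 1 was at their level and late 2 and 3 were the lowest of all. The differences were -1.18 ± 0.56 (adjusted p = 0.292) and -1.27 ± 0.56 (adjusted p = 0.286). Without late 1 the late difference of Rrm2 was -2.03 (adjusted p = 0.0529). Rrm1, the partner subunit, measured 7.39, 7.87 and 8.58 in early and 9.02, 8.67 and 8.81 in late muscle, against 8.55, 8.46 and 8.59 in control muscle. Every late array lay above every control and every early array, and early 1 and early 2 lay below the controls. Rrm1 differed by -0.89 between early and late mice (adjusted p = 0.0609), the lowest adjusted p of any member in that comparison. On its second probe set this difference was -1.27 ± 0.26 (adjusted p = 0.0263 over all passing probe sets). Without early 3, on the probe set used here, it was -1.21 ± 0.18 (adjusted p = 0.00299), where 30.5% of all tested genes were called. Over all alternatives the adjusted p ranged from 0.00299 to 0.159.

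The other nucleotide enzymes gave little. Tk1, thymidine kinase, measured 5.49, 5.45 and 7.26 in early and 5.51, 4.97 and 5.49 in late muscle, against 5.92, 5.48 and 5.32 in control muscle. Only early 3 stood out, and the early difference of 0.49 ± 0.45 was -0.10 without it. Tyms, thymidylate synthase, lay between 3.05 and 3.17 in all 9 arrays, under the floor.

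Ccnd1, cyclin D1, which couples growth signals to the start of the cycle, measured 8.15, 8.21 and 7.95 in early and 6.53, 8.50 and 7.74 in late muscle, against 9.36, 8.54 and 9.06 in control muscle. Both groups lay below the controls without overlap, and here late 1 was the lowest late array. The difference was -0.88 ± 0.43 in early (adjusted p = 0.307) and -1.40 ± 0.43 in late mice (2.63-fold lower; adjusted p = 0.173), or -0.87 without late 1 (adjusted p = 0.272). The probe sets of Ccnd1 disagreed in early mice: the other passing ones gave -0.76 ± 0.53 and 0.21 ± 0.40, and in late mice -1.69 ± 0.53 and -2.24 ± 0.40. On the last of these early and late mice differed by 2.45 ± 0.40 (adjusted p = 0.0157 over all passing probe sets), while the probe set used here gave 0.51 ± 0.44. Ccna2, the cyclin of S phase, measured 4.12, 4.62 and 4.64 in early and 5.14, 4.66 and 4.65 in late muscle, against 5.18, 4.67 and 5.09 in control muscle, near the floor throughout. Ccne1, the cyclin of the G1 to S transition, stayed between 4.31 and 4.64.

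**Figure D3:**
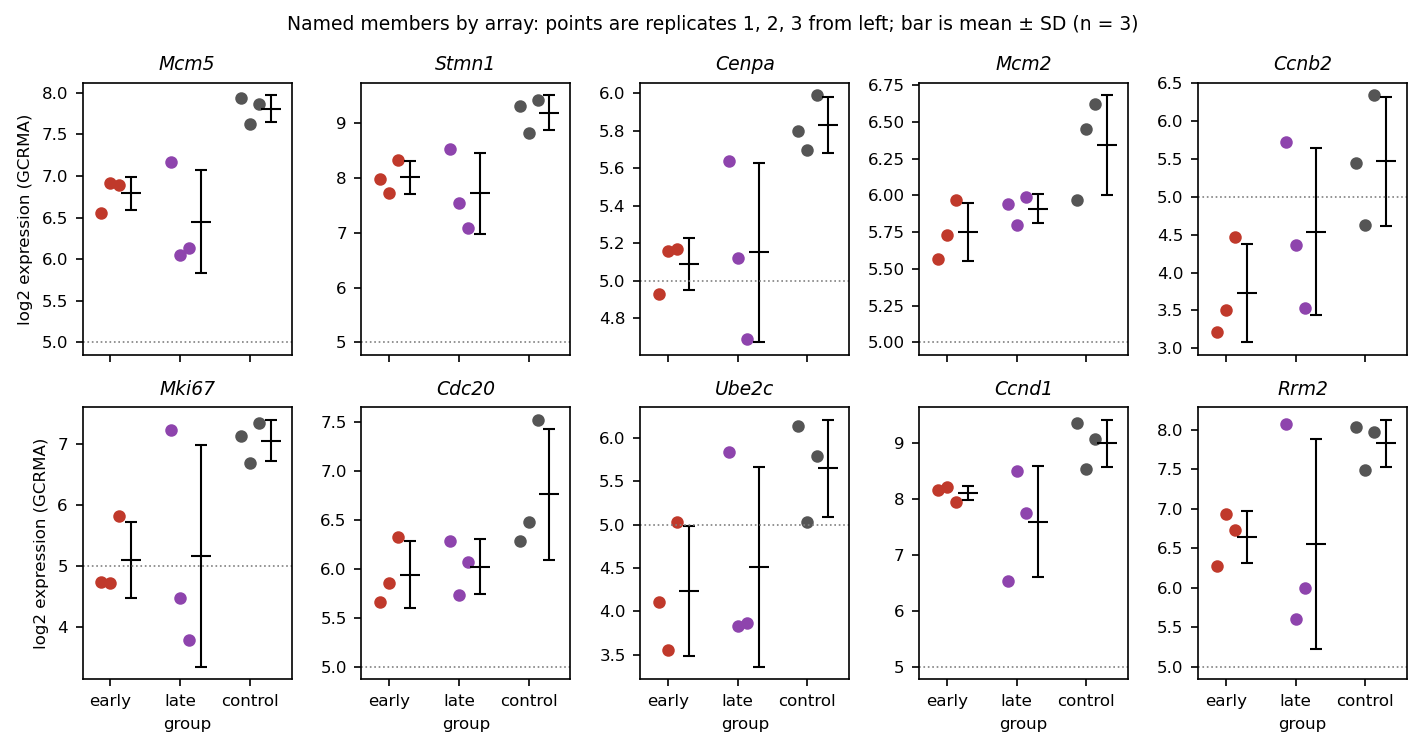
Log2 expression by array for the 10 members with the smallest p against controls, with early, late and control groups from left to right; points are replicates 1 to 3, bars are means ± SD (n = 3), and the dotted line is the floor of 5. In Mcm5, Stmn1, Cenpa and Ccnd1 all early and late points lie below the control points, while late 1 of Mki67, Rrm2 and Ube2c lies close to the controls.

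Markers of dividing chromatin held the largest early difference. Mki67, whose product coats mitotic chromosomes and is the usual histological marker of proliferation, measured 4.74, 4.73 and 5.83 in early and 7.23, 4.47 and 3.79 in late muscle, against 7.13, 6.69 and 7.35 in control muscle. Every early array lay below the controls. Late 1 was within their range and late 2 and 3 were far below it. The difference was -1.96 ± 0.77 in early (3.88-fold lower; adjusted p = 0.231) and -1.89 ± 0.77 in late mice (adjusted p = 0.267). With values under 5 set to 5, these differences were -1.78 and -1.31. Without late 1 the late difference was -2.92 (adjusted p = 0.0631). The late spread enters the shared error, and without late 1 the early difference passed the test (adjusted p = 0.0485; range over all alternatives 0.00503 to 0.523).

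Cenpa, the histone H3 variant of centromeres, measured 4.93, 5.16 and 5.17 in early and 5.64, 5.12 and 4.69 in late muscle, against 5.80, 5.70 and 5.99 in control muscle. Neither group overlapped with the controls, with differences of -0.74 ± 0.23 (adjusted p = 0.163) and -0.68 ± 0.23 (adjusted p = 0.203). Top2a, the topoisomerase that untangles replicated chromosomes, stayed below the filter, with 2.57, 3.03 and 3.32 in early and 4.12, 3.05 and 2.48 in late muscle, against 5.35, 3.58 and 4.55 in control muscle. Hmgb2, a chromatin protein, had 8.92 in late 1 and 7.0 in late 3, the highest and the lowest of the 9 arrays, and its group differences were -0.59 ± 0.44 and -0.34 ± 0.44, the late one -0.83 without late 1. Cenpe, a kinetochore motor, remained between 2.72 and 3.28.

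Of the mitotic cyclins and kinases, Ccnb2, cyclin B2, measured 3.22, 3.51 and 4.47 in early and 5.72, 4.36 and 3.53 in late muscle, against 5.45, 4.63 and 6.34 in control muscle. Early and control arrays did not overlap. The early difference was -1.74 ± 0.61 (adjusted p = 0.196) and the late one -0.94 ± 0.61 (adjusted p = 0.454). With values under 5 set to 5 they were -0.60 and -0.36. Without late 1 the late difference was -1.53 (adjusted p = 0.295). Cdk1, the kinase that Ccnb2 activates, measured 3.99, 4.08 and 4.38 in early and 3.86, 3.36 and 3.05 in late muscle, against 5.53, 5.0 and 6.14 in control muscle. It exceeded 5 only in control 1 and control 3 and so was below the filter. The 6 early and late values lie under the floor and have no order among themselves. With values under 5 set to 5, both differences were -0.56. In the fit without the filter Cdk1 had -1.41 ± 0.31 for early (adjusted p = 0.158) and -2.13 ± 0.31 for late mice (adjusted p = 0.0684), sizes that rest on values under the floor. Late 1, at the control level for Mki67 and Ccnb2, was under the floor for Cdk1.

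Aurka, the Aurora kinase of centrosomes, did not follow the groups, with 3.82, 5.16 and 7.19 in early and 5.15, 6.5 and 7.0 in late muscle, against 7.0, 6.37 and 6.37 in control muscle. Its SD of 1.70 in early mice exceeded the size of the early difference, -1.19 ± 0.78, and the late difference of -0.36 ± 0.78 was 0.17 without late 1. Without early 3 the early difference of Aurka was -2.09 ± 0.57 (adjusted p = 0.0412), where 18.1% of all tested genes were called. Over all alternatives its adjusted p ranged from 0.0265 to 0.885. Aurkb, Plk1, Bub1 and Bub1b, kinases of the spindle and its checkpoint, stayed under the floor in all 9 arrays, with early differences of -0.16, -0.04, -0.12 and -0.02.

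Ube2c, the ubiquitin-conjugating enzyme of the anaphase-promoting complex, measured 4.11, 3.55 and 5.03 in early and 5.84, 3.83 and 3.86 in late muscle, against 6.14, 5.03 and 5.79 in control muscle. The differences were -1.42 ± 0.59 (adjusted p = 0.246) and -1.14 ± 0.59 (adjusted p = 0.351), or -0.64 and -0.37 with values under 5 set to 5. Without late 1 the late difference was -1.80 (adjusted p = 0.195). Cdc20, which activates that complex, measured 5.66, 5.85 and 6.32 in early and 6.28, 5.73 and 6.07 in late muscle, against 6.28, 6.48 and 7.52 in control muscle. Its control values spread widely, and the differences were -0.82 ± 0.33 (adjusted p = 0.239) and -0.74 ± 0.33 (adjusted p = 0.296). Birc5, or survivin, a subunit of the chromosomal passenger complex, measured 4.55, 4.66 and 4.42 in early and 5.71, 4.49 and 3.15 in late muscle, against 5.55, 5.27 and 5.95 in control muscle. As with Ube2c, late 1 of Birc5 lay at the control level and late 2 and 3 below it, and the late difference of -1.14 ± 0.53 was -1.77 without late 1 (adjusted p = 0.139).

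Stmn1, stathmin, which destabilises microtubules and is also made in nerve cells, measured 7.98, 7.73 and 8.33 in early and 8.53, 7.54 and 7.08 in late muscle, against 9.32, 8.82 and 9.42 in control muscle. No early or late array reached the controls, and the differences were -1.17 ± 0.35 (2.25-fold lower; adjusted p = 0.158) and -1.47 ± 0.35 (2.77-fold lower; adjusted p = 0.118). A second Stmn1 probe set gave -0.72 ± 0.18 in early and -0.53 ± 0.18 in late mice. The motors and midzone proteins of cell division were dim, and none of these 7 genes passed the filter. Kif20a, a kinesin of the midzone, measured 3.21, 3.75 and 3.83 in early and 3.81, 3.65 and 3.84 in late muscle, against 4.29, 4.64 and 5.17 in control muscle. Racgap1, which directs the cleavage furrow, measured 3.67, 3.76 and 3.77 in early and 3.74, 3.78 and 3.21 in late muscle, against 4.32, 4.08 and 4.42 in control muscle. Racgap1 was under the floor in all arrays and Kif20a above it in control 3 alone, so no difference can be read from either; with values under 5 set to 5, Kif20a had -0.06 in both comparisons. Of all 8 spindle and microtubule genes, 6 lay below every control in all early arrays (9.89% of all genes) and 5 in all late arrays (8.9%), but 7 of the 8 are below the filter, where the arrays were not level. Prc1, a microtubule bundler of the midzone, had -0.86 ± 0.30 in both comparisons in the fit without the filter, and Kif11, the motor that separates spindle poles, had -0.30 and -0.81. Kif23, the partner of Racgap1, had -0.51 and -0.43. Nusap1, a microtubule-binding protein of the spindle, measured 4.40 in late 1 and between 2.48 and 3.65 in the other 8 arrays. Tpx2, a spindle assembly factor, had -0.53 in early and 0.04 in late mice. Prc1 and Kif11 were above 5 in control 3 alone. With values under 5 set to 5, each had -0.07 in both comparisons. Kif23, Nusap1 and Tpx2 were under the floor in every array, so no difference can be read from any of these genes either.

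**Figure D4:**
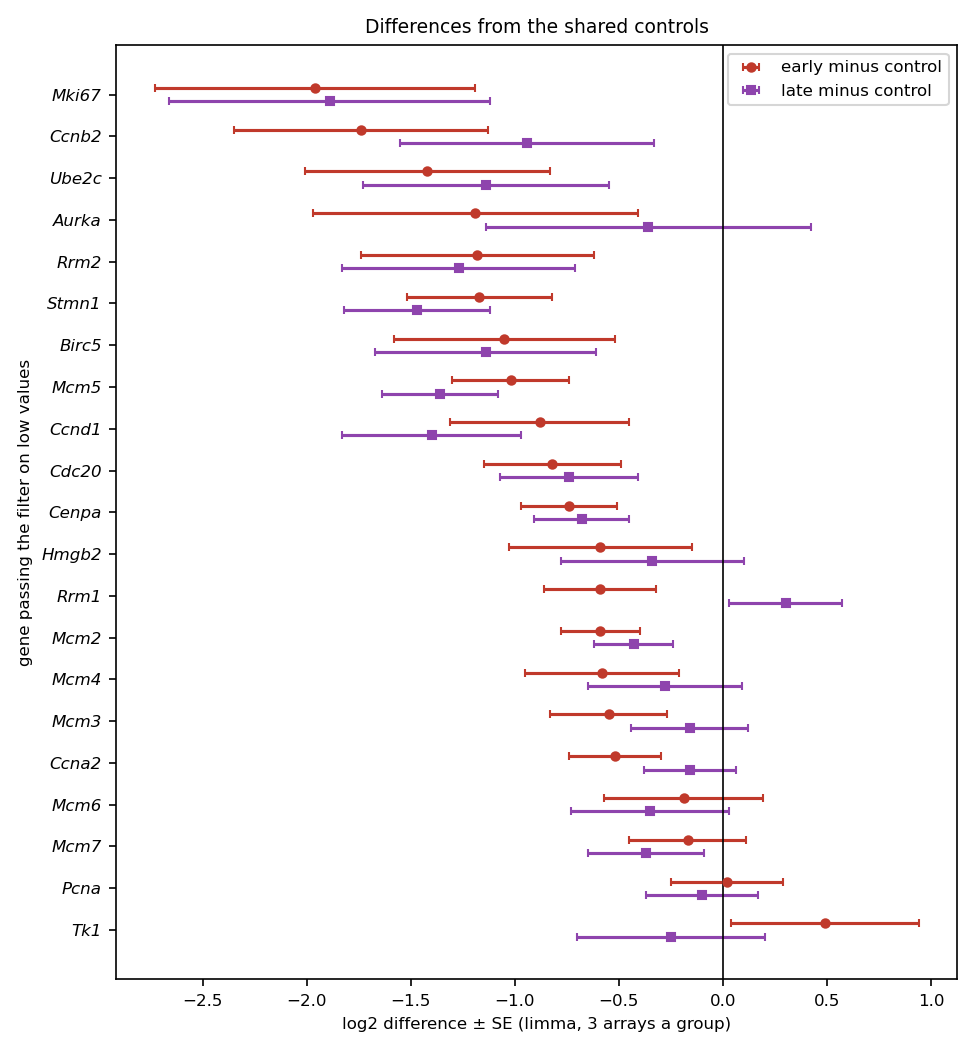
Log2 difference from the controls with its SE for the 21 members that passed the filter, early (circles) and late (squares), ordered by the early difference. Both comparisons use the same 3 control arrays; 19 early and 20 late values lie below 0, and Rrm1 has a late value of 0.30 beside an early one of -0.59.

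Early and late mice were then set against each other directly, on values of those arrays, with the controls entering the shared error. Of the 21 members, 0 were called, while 11.5% of all tested genes were. That share was 0.392% with these 2 groups fitted alone, and between 3.2% and 5.15% on leaving out a control array. At an unadjusted p under 0.05, 1 was lower in early mice, Rrm1 (18.4% of all tested genes), and 0 were higher (15.8%). The median difference was -0.06, against -0.03 over all tested genes, and 0.25 without late 1. Of the 37 members, 3 had every early array below every late one (13.7% of all genes), namely Rrm1, Ccna2 and Tpx2, and 1 had every early array above, Cdk1 (7.89% of all genes). Cdk1 and Tpx2 were under the floor in all these arrays, and Ccna2 in all but late 1. With array weights estimated by limma, 3 members were called, Rrm1 and Aurka lower and Mcm5 higher in early mice, against 36.4% of all tested genes.

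Other genes of the cycle were read from lists that held no member. Of 9 other spindle, kinetochore and cytokinesis genes tested, 1 fell in early (1.19% of all tested genes called) and 1 in late mice (0.206%), in both cases Pbk, a mitotic kinase. Pbk measured 3.81, 4.54 and 4.74 in early and 3.83, 4.26 and 3.90 in late muscle, against 6.22, 5.93 and 6.61 in control muscle (-1.89 ± 0.27, adjusted p = 0.0158; -2.26 ± 0.27, adjusted p = 0.0246). All 6 early and late values lie under the floor, so the controls carried Pbk through the filter, and with values under 5 set to 5 both differences were -1.25. With the replicate block the late call was lost (adjusted p = 0.0597). Both calls were lost in some alternatives, with adjusted p up to 0.0946 and 0.143. Cdca8, a subunit of the passenger complex with Birc5, had -1.48 ± 0.49 and -1.74 ± 0.49, and Incenp, its scaffold, -0.59 ± 0.21 and -0.79 ± 0.21. Among the early and late arrays Cdca8 was above the floor in late 1 alone, so the controls carried it through the filter. The sizes for Cdca8 rest on values under the floor. Kif22, a chromosome-binding kinesin, had -0.58 ± 0.16 and -0.66 ± 0.16. Between early and late mice Ckap5, a microtubule polymerase, was called lower in early mice (-0.83, adjusted p = 0.0315), where 11.5% of all tested genes were called. The Ckap5 call held in 11 of 20 alternatives. The medians of this list were -0.58 in early and -0.48 in late mice.

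Of 17 genes for DNA polymerases, the fork and nucleotides, 1 fell in early mice (1.19% of all tested genes called). This was Dut, the enzyme that removes dUTP from the nucleotide pool, which measured 6.49, 6.45 and 6.79 in early and 7.07, 7.03 and 7.13 in late muscle, against 7.26, 7.27 and 7.30 in control muscle (early -0.70 ± 0.13, adjusted p = 0.0468; late -0.20 ± 0.13, adjusted p = 0.46). All 3 groups were separate. With the replicate block the early call was lost (adjusted p = 0.0796). It held in 8 of 20 alternatives, with adjusted p up to 0.208, and was lost on leaving out any control array, early 1, early 2 or any late array. Between early and late mice, 11.5% of all tested genes were called. Dut was called lower in early mice there (-0.50, adjusted p = 0.0457), a call that held in 8 of 20 alternatives. Rfc4, a subunit of the clamp loader, was also lower (-0.76, adjusted p = 0.0241), and its call held in 15 of 20. Pola2, a subunit of DNA polymerase alpha, had -0.52 ± 0.16 in early and -0.68 ± 0.16 in late mice. Among 9 licensing and helicase-loading genes 0 were called, with medians of 0.04 and 0.08, and Orc6, a subunit of the origin recognition complex, had -0.57 and -0.45.

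Of 12 other chromatin genes tested, condensins included, 0 were called. Ncaph, a condensin subunit, had -1.07 ± 0.22 in early (adjusted p = 0.0624) and -0.71 ± 0.22 in late mice, and Smc2, a condensin ATPase, -0.75 ± 0.20 and -0.43 ± 0.20. Of 13 other cyclins and kinases 0 were called against controls, with medians of -0.16 in early and -0.56 in late mice. The D-type cyclins Ccnd2 and Ccnd3 had -0.34 ± 0.23 and -0.59 ± 0.20 in early and -0.81 ± 0.23 and -0.77 ± 0.20 in late mice, beside Ccnd1 above. Between early and late mice Cdk4, the kinase of D-type cyclins, was called higher in early mice (0.91, adjusted p = 0.0313). Wee1, which restrains Cdk1, was called lower in early mice (-0.62, adjusted p = 0.0491). In that comparison 11.5% of all tested genes were called. The Cdk4 call held in 11 of 20 alternatives and that of Wee1 in 8. Cks2, which binds Cdk1, had -1.06 ± 0.45 and -1.43 ± 0.45.

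Of 12 E2F and RB genes 0 were called against controls, and 3 were called between early and late mice, which also differ in age, where 11.5% of all tested genes were called: E2f2, an activator of S phase genes, was higher in early mice (1.49, adjusted p = 0.0137), and Rbl2, an RB relative that acts in quiescent cells, and E2f6, a repressor, were lower (-1.46, adjusted p = 0.0297; -0.85, adjusted p = 0.0388). E2f2 measured 7.67, 6.99 and 6.76 in early and 5.43, 5.75 and 5.78 in late muscle, against 7.28, 7.22 and 6.83 in control muscle, so the late arrays alone lay low. The E2f2 call held in 18 of 20 alternatives, that of Rbl2 in 11 and that of E2f6 in 10. Of 16 growth arrest genes 0 were called; the CDK inhibitor Cdkn1c measured 10.52, 10.35 and 10.29 in early and 10.20, 9.20 and 9.22 in late muscle, against 11.47, 11.18 and 11.10 in control muscle (early -0.86 ± 0.26, adjusted p = 0.162; late -1.71 ± 0.26, adjusted p = 0.0519). Cdkn1a, the CDK inhibitor p21, lay the other way in early 1 and 2, at 12.52, 11.32 and 8.98 in early and 10.29, 8.51 and 9.04 in late muscle, against 8.89, 9.26 and 9.13 in control muscle (early 1.85 ± 0.80, adjusted p = 0.261). Gadd45a, a growth arrest gene, had 0.67 ± 0.26 in early mice (adjusted p = 0.224). Of 15 genes of the anaphase-promoting complex and mitotic exit 0 were called against controls. Between early and late mice 5 were called, where 11.5% of all tested genes were. Ube2s, which extends ubiquitin chains with that complex, was higher in early mice (0.77, adjusted p = 0.0212), and the phosphatase Cdc14a lower (-2.06, adjusted p = 0.0251). The Ube2s call held in 15 of 19 alternatives and that of Cdc14a in 12 of 20.

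Markers of cell types that a whole muscle can hold were read beside these values. They name cell types and do not measure division. The summed linear level of 8 satellite cell and myoblast markers was 1563 to 2098 in early and 1526 to 1763 in late muscle, against 2097 to 2292 in control muscle; of the 8 genes, 1 fell in early mice (Mymk; 1.19% of all tested genes called) and 2 in late mice (Mymk and Myog; 0.206%), and all 8 passed the filter. With the replicate block the late call of Mymk remained (adjusted p = 0.0204), while its early call (adjusted p = 0.0508) and that of Myog (adjusted p = 0.0935) were lost. Among the early and late arrays Mymk was above the floor in early 2 alone, so the controls carried it through the filter. Its differences were -1.42 in early and -2.60 in late mice, or -1.40 and -1.55 with values under 5 set to 5. Pax7, which marks satellite cells, measured 3.99, 4.51 and 6.03 in early and 5.73, 6.28 and 6.02 in late muscle, against 6.03, 6.64 and 6.42 in control muscle. The median difference of the 8 markers was -0.55 in early and -0.19 in late mice. Apart from Mymk and Myog the late differences were small or positive. They were -0.35 for Pax7, -0.01 for Myf5, 0.54 for Myod1, -0.06 for Cdh15, -0.30 for Itga7 and -0.09 for Chodl. The sum of 7 fibroblast markers was 74673 to 93204 in early and 55422 to 72907 in late muscle, against 82618 to 102875 in control muscle. That of 10 macrophage markers was 5861 to 14961 in early and 4879 to 7543 in late muscle, against 6553 to 8538 in control muscle. Itgam was under the floor throughout. In early 1 and early 2, 9 and 8 of the 10 macrophage markers lay above the control mean, while in early 3 all 10 lay below it. The sum of 8 endothelial markers was 1743 to 2197 in early and 1982 to 2471 in late muscle, against 1969 to 2691 in control muscle. That of 5 adipocyte markers was 17946 to 21435 in early and 16418 to 33986 in late muscle, against 24174 to 37013 in control muscle. All 7 T and NK cell markers with a probe set, and Cd79a, Cd79b and Ms4a1 of B cells, were under the floor in every array. Ighm of B cells and Alas2 of red cell precursors were the only tested markers of those cells, with differences of -2.85 and -1.06 in early and -0.30 and -0.41 in late mice. The part of these cell markers in the values of the cell cycle genes was not tested.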

How the data were processed

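Per the labels' protocols, total RNA of quadriceps was primed with oligo(dT) and read after biotin labelling on Affymetrix arrays, 1 per mouse. The authors deposited log2 values made with GCRMA, per the submitters' processing notes; its version is not given in the sources used here. GCRMA compresses dim values and equalises arrays, which hides any shift of the whole array. The table held 45101 probe sets on 9 arrays, with array medians of 3.41 to 3.45; precision is limited by 3 arrays a group. The 34958 probe sets that name 1 gene in the platform annotation were used, without control probe sets; 932 named several genes and 9211 none. A probe set was kept above log2 5 in at least 3 arrays, and the one with the highest mean was taken per gene.

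One model of 3 group means was fitted to 9697 genes with limma 3.58.1 (lmFit, eBayes; R 4.3.3; 6 residual and 2.84 prior degrees of freedom), with Benjamini-Hochberg adjustment over all genes and calls at an adjusted p under 0.05. Its code was first tested on simulated data. With 3 arrays a group, exact permutation has a smallest p of 0.1, so none was run. Labels do not say what replicates share, so p values rest on the spread among these samples, which may be technical. Deviations of same-numbered early and late arrays correlated at 0.168, 0.201 and 0.16 over genes, so these numbers were treated as pairs and a replicate block was run beside the fit. Early and control pairs gave 0.35, 0.11 and -0.0391, and late and control pairs 0.0847, -0.165 and -0.11. The block spans all 3 groups, so against controls it assumes a pairing that most of these values and the labels do not show.

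Members and lists were chosen with earlier results of these data known. Full statistics were given for the 8 members with the smallest p in each comparison with controls and, from each other list, up to 4 genes a comparison; further probe sets, Rrm1, Aurka, Cdk1, the genes called between early and late mice and others named beyond this were chosen after their values were seen.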

Additional observations from a re-analysis of the deposited data

How the results depend on the processing

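The count of members called, 0 in all 3 comparisons, depended on the setting, beside the share of all tested genes called there. With array weights, whose estimation did not converge fully, it was 10 for early against control (34.4% of all genes), 8 for late against control (10.7%) and 3 for early against late (36.4%). Leaving out 1 array gave 0 to 3 for early against control (3 without early 3, 18.1%; 2 without late 1, 1.14%), 0 to 1 for late against control (without late 1, 0.0928%) and 0 to 1 for early against late (without early 3, 30.5%). Leaving out early 3 and late 3 together, chosen after seeing the data, gave 5 for early against control (16.3%) and 1 for early against late (27.2%). The mean of a gene's probe sets gave 1 for early against late (11.1%). The replicate block gave 0, 0 and 0; the genes of other lists whose calls it ended are named beside them.

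The members' median lay between -0.81 and -0.50 for early against control and between -0.83 and -0.43 for late against control on leaving out 1 array. For early against late it ran from -0.26 to 0.25, the highest without late 1. On leaving out 1 array, signs turned in early against control for Mcm6 (-0.41 to 0.13), Pcna (-0.15 to 0.21) and Tk1 (-0.10 to 0.80). In late against control they turned for Pcna (-0.33 to 0.08), Aurka (-0.75 to 0.17) and Hmgb2 (-0.83 to 0.13). In early against late they turned for Mcm4 (-0.50 to 0.07), Mcm6 (-0.11 to 0.48), Mcm7 (0.00 to 0.54), Pcna (-0.05 to 0.35), Rrm2 (-0.39 to 0.85), Mki67 (-0.75 to 0.97), Ccnd1 (-0.01 to 0.97), Cdc20 (-0.27 to 0.06), Ube2c (-0.68 to 0.38), Birc5 (-0.56 to 0.73), Cenpa (-0.29 to 0.18), Hmgb2 (-0.72 to 0.25) and Stmn1 (-0.02 to 0.70). With array weights they turned for Mcm6 in early against control (0.23), Aurka in late against control (0.15) and, in early against late, Mcm3 (0.16), Mki67 (0.36), Cenpa (0.14) and Hmgb2 (0.14). Without early 3 and late 3 they turned for Mcm6 (0.13) and Tk1 (-0.10) in early against control, Pcna (0.07) and Hmgb2 (0.13) in late against control, and Rrm2 (-0.23), Birc5 (-0.49) and Stmn1 (-0.18) in early against late. In early against late they also turned for Mcm7 (-0.08 with the mean of probe sets, -0.13 without shared-probe sets), for Cdc20 (0.03), Hmgb2 (0.08) and Stmn1 (-0.19) without shared-probe sets, and for Birc5 (-0.24) with values under 5 set to 5. The causes were not tested. Values near or under the floor limit the size of the differences in Mki67, Ccnb2, Ube2c, Birc5, Cdk1, Pbk, Cdca8, Mymk and the spindle genes.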
